A study of Mus musculus with 8 samples.

Results

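The 41 genes described here encode sodium, calcium, HCN and TRP channels and their accessory subunits. They were taken as a fixed list of gene symbols, chosen with earlier results of these data known, out of 35968 genes joined from the deposited transcripts, of which 24952 had any count and 15194 had enough counts to be tested. The list holds 6 pore subunits and 3 beta subunits of voltage-gated sodium channels, 3 genes of the NALCN sodium leak channel, 5 pore subunits of high voltage activated and 3 of T-type calcium channels, 4 calcium channel beta subunits, 3 alpha2delta subunits, 3 HCN channels, 5 TRPC, 4 TRPM and 2 TRPV channels. Enough counts for a test were found for 40 of them, all but *Trpv1*.

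RNA came from tdTomato-positive cells of 4 female and 4 male mice, 1 library per mouse. All 8 mice carried 1 copy of the *Sst-Cre* knock-in allele (Ssttm2.1(cre)Zjh/J / +) and had received AAV2-flex-tdTomato in the tuberal nucleus (TN) of the hypothalamus, and sex is the difference between the groups that the labels give. Cre is driven from the *Sst* locus, so red cells are cells that have expressed somatostatin and took up the virus. Live, nucleated, red cells were collected by flow cytometry and sequenced in bulk. Neither an age nor the estrous stage of these females is given in the labels, and the methods describe cycling females and males with intact gonads. P-values measure the spread between these 8 mice.

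Voltage-gated sodium channels carry the rising phase of the action potential, and their beta subunits set their gating and place in the membrane. Calcium channels couple firing to transmitter and peptide release and to gene expression, T-type and HCN channels shape rebound and rhythmic firing near rest, and the NALCN leak current holds the resting potential away from that of potassium. TRP channels pass sodium and calcium in answer to receptors, lipids, steroids, temperature or oxidants, and in hypothalamic neurons TRPC channels are known for carrying excitatory responses to leptin.

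Estimated counts summed to between 7.83 and 17.6 per mouse, in units of 1000000, and 3 counts, taken as the limit of detection, equal 0.148 to 0.458 CPM (counts-per-million values scaled by edgeR's TMM factors). Such limits cover counting error only. The neuron markers listed for the check, *Sst* and *Snap25* among them, summed to between 2920 and 5108 TPM (transcripts-per-million values) per mouse over 9 genes. Markers of other cells were present too. Summed over 10 microglial genes TPM lay between 385 and 2161 in females and 812 and 4191 in males, and over 10 genes of infiltrating immune cells between 44.1 and 2444 in females and 153 and 5381 in males. No marker of these lists was at 0 in all mice. In bulk RNA, fewer cells of a type and less RNA per cell cannot be told apart.

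RNA of every one of these families was found in the sorted cells, for TRPV through *Trpv2*. TPM, which is per transcript length and is the scale on which genes are compared here, was averaged over both blocks of values that each mouse has. The highest member was the sodium channel gene *Scn2a* with 121 ± 34.4 TPM (SD, n = 8 mice), followed by *Unc80* with 93.6 ± 24.4 TPM and *Scn2b* with 92.8 ± 21.7 TPM. This order depends on the length used. With levels computed as counts over the count-weighted transcript length and scaled to the same sum as TPM, *Scn2b* had 124, *Scn2a* 113, *Cacna2d2* 91.9 and *Unc80* 85.8. The lowest in TPM were *Scn7a* with 1.58 ± 0.644 TPM, *Scn4b* with 0.673 ± 0.364 TPM and *Trpv1*, the capsaicin receptor, which had 2 counts in female 2 and 0 in the other mice. All channel genes together summed to between 1427 and 1948 TPM in females and 1094 and 1424 TPM in males.

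**Figure D1:**
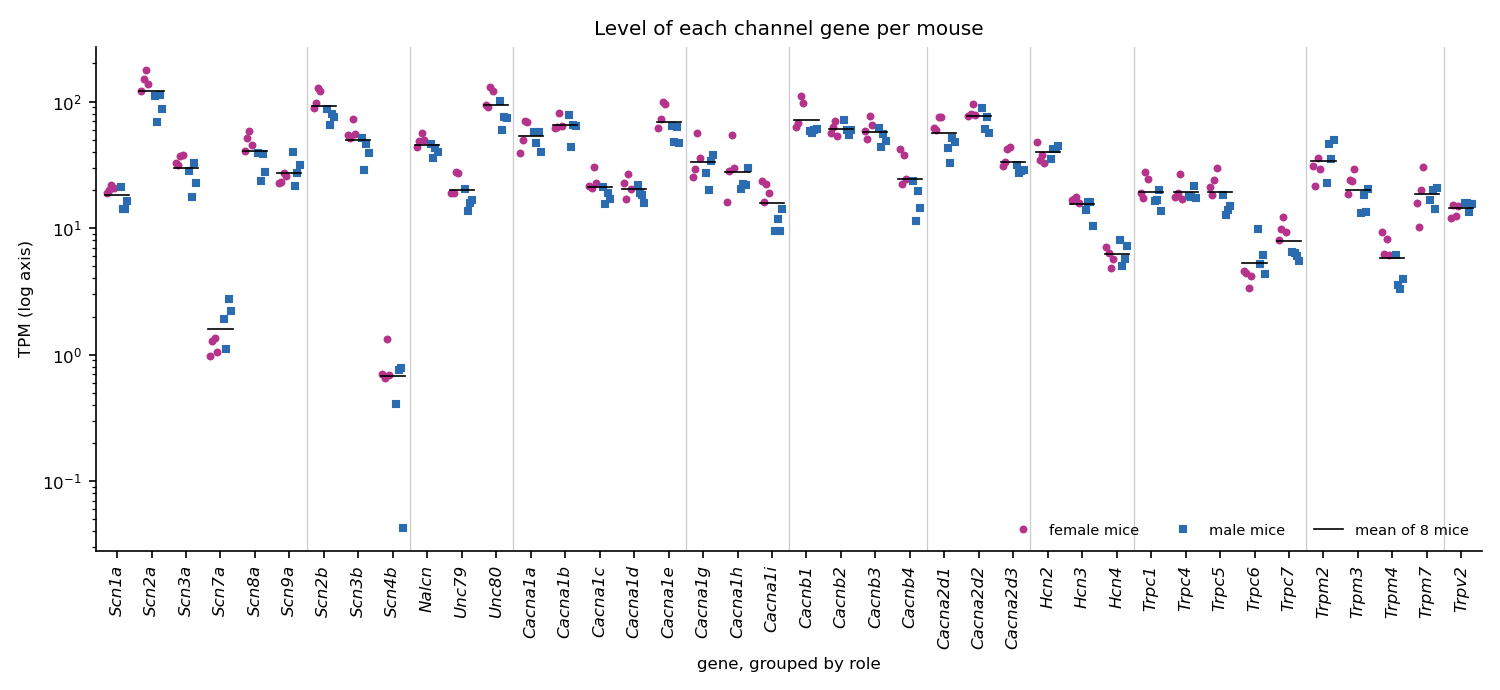
TPM (log axis) of 40 channel genes in each mouse, grouped by role, with circles for females, squares for males and a line at the mean of 8 mice. *Scn2a* is highest at a mean of 121 TPM, though below *Scn2b* with count-weighted lengths, and *Scn7a* and *Scn4b* lie far below the rest of their families at 1.58 and 0.673 TPM; *Trpv1* is left out because it is at 0 in 7 of the mice.

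No channel gene differed between the sexes at an adjusted p under 0.05 (quasi-likelihood test of edgeR, adjusted after Benjamini and Hochberg), where 0.158% of all genes tested did. The values nonetheless leaned one way. Of the 40 genes, 33 were higher in females. Over all 40 the median log2 fold change, female over male, was 0.27, while the median over all genes tested was -0.0043. At an unadjusted p under 0.05, 19 channel genes were higher in females and 3 in males, that is 47.5% and 7.50% of the 40, against 9.86% and 10.7% of all genes tested. In 12 channel genes, or 30.0%, every female lay above every male, against 6.48% of all genes, and in 1, or 2.50%, every male lay above every female, against 3.94%. DESeq2, the tool the paper names, called 14 of the 39 channel genes it could adjust, all higher in females, against 4.38% of the genes it could adjust, and 0 higher in males, against 3.48%; the 3 with the smallest p were *Cacna2d1*, *Cacna1i* and *Trpm3*.

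The calls depended on single mice. Without female 1, edgeR called 6 of the 40 genes, *Cacna1e*, *Cacna1i*, *Cacna2d1*, *Cacnb1*, *Scn2b* and *Trpm3*, against 2.67% of all genes tested. Without male 1 it called 7, *Cacna1c*, *Cacna1e*, *Cacna1i*, *Cacna2d1*, *Scn2a*, *Scn3b* and *Unc80*, against 2.65%. Without each of the other mice, and without both female 1 and male 2, it called 0. Counted in either direction, the sexes did not overlap in 13 channel genes (10.4% of all genes), in 22 without female 1 (20.2%), in 20 without male 1 (23.6%) and in 23 without both female 1 and male 2 (23.5%), the pair with the most immune RNA in an earlier description of these data.

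The channel genes followed the mice as well as the sexes. Female 3 was the highest of the 8 mice in 18 of the 40 genes and female 4 in 12, while male 2 was the lowest in 19 and male 4 in 7. The median deviation from the gene's mean log2 CPM over the 40 genes was 0.01, 0.11, 0.28 and 0.21 across females 1 to 4 and 0.01, -0.29, -0.13 and -0.16 across males 1 to 4. Female 1 and male 1 lay at about the same place. Over 10 microglial genes the same measure was 0.58, -0.99, -1.86 and -0.42 across females 1 to 4 and -0.72, 1.33, 0.67 and 1.37 across males 1 to 4. The mice with the most microglial RNA, male 2 and male 4, had the lowest channel medians, and female 3, with the least, had the highest. Infiltrating immune genes, at 1.93, -1.86, -1.82 and -2.15 across females 1 to 4 and 0.90, 3.38, 1.12 and -2.24 across males 1 to 4, did not follow that order, with male 4 the lowest and female 1 next to male 2. Astrocyte genes lay at -0.08, 0.46, -1.58 and -0.27 across females 1 to 4 and 0.01, 0.88, 0.16 and 0.59 across males 1 to 4. Oligodendrocyte lineage genes had 0.53, -0.35, -1.26 and -0.69 across females 1 to 4 and -0.62, 0.80, 0.86 and 0.90 across males 1 to 4. Like microglial genes, both were lowest in female 3, with males 2 and 4 highest for astrocytes and males 2 to 4 for oligodendrocyte lineage. Neuron identity genes lay at 0.06, 0.16, 0.04 and 0.13 across females 1 to 4 and -0.02, -0.20, -0.18 and -0.26 across males 1 to 4. The part of this mixture of cells in the sex differences was not tested.

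**Figure D2:**
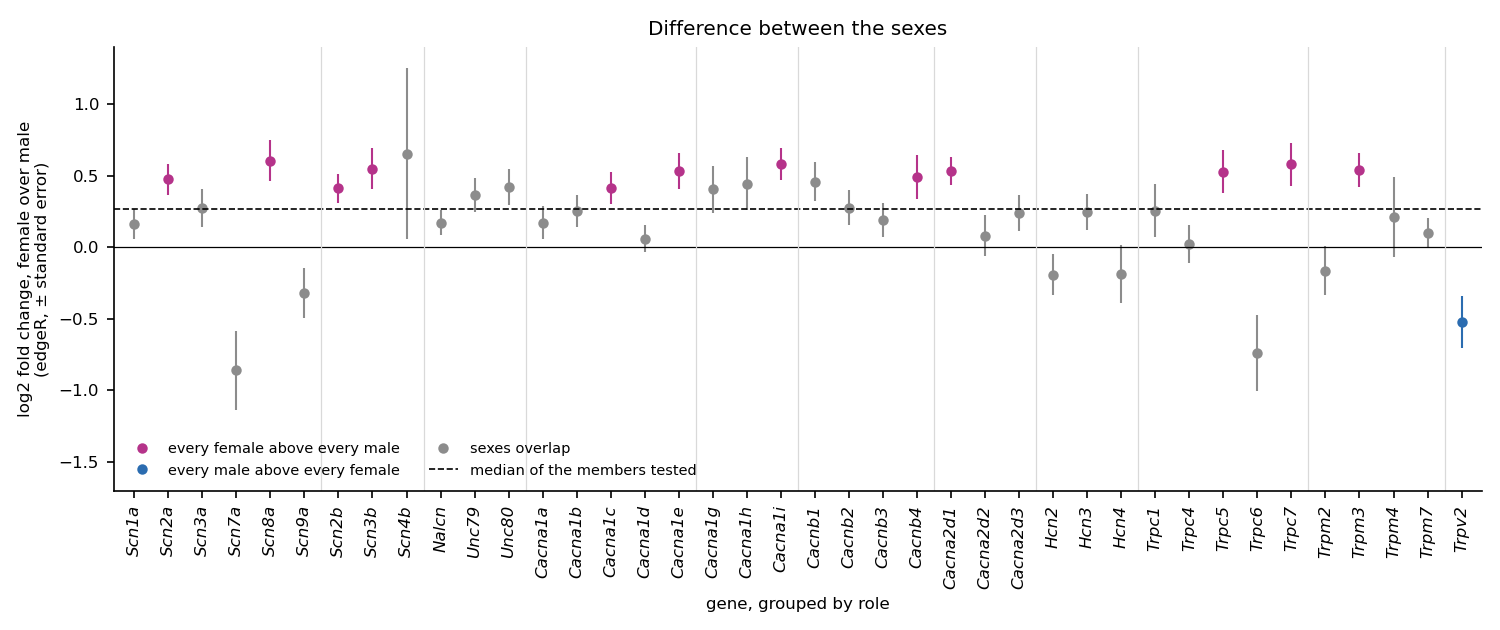
Log2 fold change, female over male, with its standard error from edgeR for the 40 channel genes tested, grouped by role. Colored points mark the 12 genes with every female above every male and the 1 gene, *Trpv2*, with every male above every female; the dashed line at 0.27 is the median of the 40.

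Among the 6 sodium channel pore subunits, *Scn2a* held 45.8% to 54.9% of the family's summed TPM in each mouse. *Scn8a*, which drives repetitive firing at the axon initial segment, had 40.6 ± 11.5 TPM, *Scn3a*, best known from developing brain, 30.1 ± 7.0 TPM, *Scn9a*, known from pain neurons and the hypothalamus, 27.4 ± 6.06 TPM, and *Scn1a*, the main channel of many inhibitory neurons, 18.4 ± 3.13 TPM (SD, n = 8). *Scn2a* was above *Scn8a* in 8 of 8 mice. The TPM of *Scn2a* includes short transcripts marked for nonsense-mediated decay, which held 1.05% and 0.903% of its counts but 21.6 and 13.6 TPM. On average 69.6% of its TPM lay on protein-coding transcripts. The order of *Scn3a* and *Scn9a* was the deposited one in 5 of 8 mice, and that of *Scn8a* and *Scn3a* turned in 8 of 8 mice when levels were computed as counts over the count-weighted transcript length.

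*Scn2a* (chromosome 2, 65620771 to 65767447 of mm10) had 403, 424, 455 and 466 CPM across females 1 to 4, and 366, 262, 340.0 and 288 CPM across males 1 to 4. Every female lay above every male, with 437 ± 28.6 against 314 ± 47.3 CPM (SD, n = 4 each) and a log2 fold change of 0.48 (standard error 0.110, edgeR adjusted p = 0.0906). *Scn8a* (chromosome 15, 100869858 to 101045938) had 122, 116, 159 and 136 CPM across females 1 to 4, and 98.5, 66.7, 89.0 and 97.0 CPM across males 1 to 4. Its sexes did not overlap either, with 133 ± 19.2 against 87.8 ± 14.7 CPM (SD, n = 4 each) and a log2 fold change of 0.60 (standard error 0.142, edgeR adjusted p = 0.0930), and with a range over the mice of 1.25 on the log2 scale it was among the 3 widest of the genes with at least 10 counts in every mouse. For each gene here whose sexes did not overlap, the 2-sided exact permutation test could only give p = 0.0286, the smallest that 4 mice against 4 allow. That p restates the lack of overlap and adds no support to it.

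*Scn7a*, a sodium-sensing relative of these channels that glia also express, had its higher mean in males. With 38 to 132 counts per mouse, *Scn7a* (chromosome 2, 66673425 to 66784914) had 4.22, 5.80, 5.03 and 4.23 CPM across females 1 to 4, and 8.39, 5.04, 11.8 and 9.70 CPM across males 1 to 4. Male 2 lay within the range of the females and the other males above it, with 4.82 ± 0.758 against 8.73 ± 2.83 CPM (SD, n = 4 each) and a log2 fold change of -0.86 (standard error 0.275, edgeR adjusted p = 0.152). The remaining pore subunits overlapped between the sexes, *Scn3a* with a log2 fold change of 0.28, *Scn1a* with 0.16 and *Scn9a* with -0.32, and their adjusted p-values in edgeR lay between 0.263 and 0.405.

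The sodium channel beta subunits, which bind the pore subunits and act in cell adhesion, were led by *Scn2b*, with 61.9% to 69.0% of the TPM of the 3 genes, and *Scn3b*. *Scn2b* (chromosome 9, 45117782 to 45130070) had 236, 273, 296 and 306 CPM across females 1 to 4, and 232, 184, 209.8 and 209 CPM across males 1 to 4. Female 1, the lowest female, lay just above male 1, the highest male, with 278 ± 30.8 against 209 ± 19.9 CPM (SD, n = 4 each) and a log2 fold change of 0.41 (standard error 0.101, edgeR adjusted p = 0.0994). *Scn3b* (chromosome 9, 40269217 to 40291618) had 98.4, 97.1, 124 and 106 CPM across females 1 to 4, and 91.3, 67.0, 74.3 and 57.7 CPM across males 1 to 4, with 106 ± 12.2 against 72.6 ± 14.2 CPM (SD, n = 4 each) and a log2 fold change of 0.55 (standard error 0.142, edgeR adjusted p = 0.106). In both genes every female lay above every male. *Scn4b* had 1 to 67 counts per mouse and a log2 fold change of 0.66 with a standard error of 0.60, which cannot be told from 0 at this depth.

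The NALCN complex, a pore with large accessory proteins, was led by *Unc80*, at 54.8% to 61.4% of the TPM of its 3 genes. *Unc80* (chromosome 1, 66468367 to 66699148) had 435, 431, 480.4 and 507 CPM across females 1 to 4, and 432, 282, 349 and 322 CPM across males 1 to 4. Male 1 lay above female 2 and close to female 1, so that the sexes overlapped, with 463 ± 36.5 against 346 ± 63.4 CPM (SD, n = 4 each) and a log2 fold change of 0.42 (standard error 0.126, edgeR adjusted p = 0.136). *Nalcn*, the pore, had 45.4 ± 6.27 TPM and a log2 fold change of 0.17, and *Unc79* 19.9 ± 5.08 TPM and 0.37 (edgeR adjusted p = 0.284 and 0.152). Of the counts of *Nalcn*, 86.2% lay on its protein-coding transcript and 9.93% on a processed transcript.

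All 8 calcium channel pore subunits on the list were present. *Cacna1e*, the R-type channel, *Cacna1b*, the N-type channel of nerve terminals, and *Cacna1a*, the P/Q-type channel of central synapses, had 68.9 ± 19.8 TPM, 65.1 ± 11.4 TPM and 53.5 ± 12 TPM. The T-type genes *Cacna1g* and *Cacna1h* and the L-type genes *Cacna1c* and *Cacna1d* followed with 33.1, 27.8, 21 and 20.2 TPM, and the T-type gene *Cacna1i* was lowest with 15.7. *Cacna1e* was above *Cacna1b* in 4 of 8 mice by TPM but in 8 of 8 with count-weighted lengths, at 70.3 against 51.7. *Cacna1c* was above *Cacna1d* in 5 of 8 on both scales, so that pair did not differ beyond its spread. *Cacna1h* was above *Cacna1c* in 6 of 8 by TPM, but its mean lay just below with count-weighted lengths, at 24.4 against 24.7. *Cacna1a* was above *Cacna1g* in 8 of 8 on both scales.

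All 8 calcium channel pore genes had a log2 fold change above 0, as did 49.4% of all genes tested, and in 3 of them every female lay above every male, against 6.48% of all genes. *Cacna1e* (chromosome 1, 154390731 to 154884501) had 357, 422, 452 and 462 CPM across females 1 to 4, and 337, 249.6, 326 and 255 CPM across males 1 to 4. Male 1 and male 3 came close to female 1, the lowest female, with 423 ± 47.4 against 292 ± 46.2 CPM (SD, n = 4 each) and a log2 fold change of 0.53 (standard error 0.126, edgeR adjusted p = 0.0930). *Cacna1i* (chromosome 15, 80287238 to 80398279) had 61.5, 66.0, 79.8 and 84.5 CPM across females 1 to 4, and 50.4, 48.3, 47.6 and 48.4 CPM across males 1 to 4. Its males lay close together, between 47.6 and 50.4 CPM, below female 1 at 61.5, with 73.0 ± 11.0 against 48.7 ± 1.20 CPM (SD, n = 4 each) and a log2 fold change of 0.59 (standard error 0.112, edgeR adjusted p = 0.0690). *Cacna1i* shared with *Cacna2d1* the smallest adjusted p of the 40 genes.

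*Cacna1c*, the L-type channel that links calcium entry to transcription, (chromosome 6, 118587240 to 119196418) had 117, 112, 139 and 119 CPM across females 1 to 4, and 108, 76.8, 87.7 and 93.6 CPM across males 1 to 4, with 122 ± 11.7 against 91.4 ± 12.8 CPM (SD, n = 4 each) and a log2 fold change of 0.41 (standard error 0.113, edgeR adjusted p = 0.118). Female 2, the lowest female, lay close above male 1, and male 2 was lowest. The highest T-type gene, *Cacna1g* (chromosome 11, 94408391 to 94474198), had 84.7, 103, 148 and 119.8 CPM across females 1 to 4, and 95.5, 72.0, 84.4 and 92.8 CPM across males 1 to 4. Female 1 lay among the males, with 114 ± 27.0 against 86.2 ± 10.6 CPM (SD, n = 4 each) and a log2 fold change of 0.41 (standard error 0.165, edgeR adjusted p = 0.220). *Cacna1h*, *Cacna1b*, *Cacna1a* and *Cacna1d* had log2 fold changes of 0.45, 0.25, 0.17 and 0.06, with edgeR adjusted p-values between 0.222 and 0.753. The sign of *Cacna1d* turned when its protein-coding transcripts alone were counted, which held 65.2% of its counts, or when the first block of values was used.

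*Cacna1c*, *Cacna1d*, *Cacna1b* and *Cacna1e* each carry a pair of neighbouring coding exons of equal length that are used one at a time. These pairs were chosen after the values were seen, by searching the annotation of the calcium channel genes. That of *Cacna1c* is shown because both copies were present at like levels in TPM. The exon has 104 bases and its copies lie on mm10 chromosome 6 at 118742265 to 118742368 (upstream) and 118741871 to 118741974 (downstream) on the - strand, with the 32 bases at which they differ in capitals, written 5′ to 3′ on the coding strand.
Cacna1c upstream copy: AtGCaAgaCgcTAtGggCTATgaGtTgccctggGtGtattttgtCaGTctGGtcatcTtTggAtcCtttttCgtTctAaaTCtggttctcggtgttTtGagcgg
Cacna1c downstream copy: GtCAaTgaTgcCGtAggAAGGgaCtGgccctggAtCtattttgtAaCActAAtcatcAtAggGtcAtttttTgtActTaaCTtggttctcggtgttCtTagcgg
The upstream copy of *Cacna1c* held 60.1%, 50.6%, 59.0% and 66.2% of the TPM across females 1 to 4 and 52.6%, 53.2%, 55.7% and 49.9% across males 1 to 4. Females 1, 3 and 4 lay above all males and female 2 below 3 of the 4. By estimated counts the upstream copy was ahead in every mouse, such as 961 against 318 in female 4 and 440 against 299 in male 4. In *Cacna1b*, *Cacna1d* and *Cacna1e* the upstream copy held at most 14.2%, 16.0% and 4.44% of TPM in any mouse. The 14.2% of *Cacna1b*, in female 1, rested on 4.51 estimated counts against 1421 for the downstream copy. The 4.44% of *Cacna1e*, in female 3, rested on 5.41 against 8407, both few counts on the upstream copy. That of *Cacna1d*, in male 2, rested on 100 against 479. The share is kallisto's division of reads among whole transcripts, and the leading transcripts of the *Cacna1c* copies differ elsewhere by 7556 bases, so it does not rest on the exon alone.

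**Figure D3:**
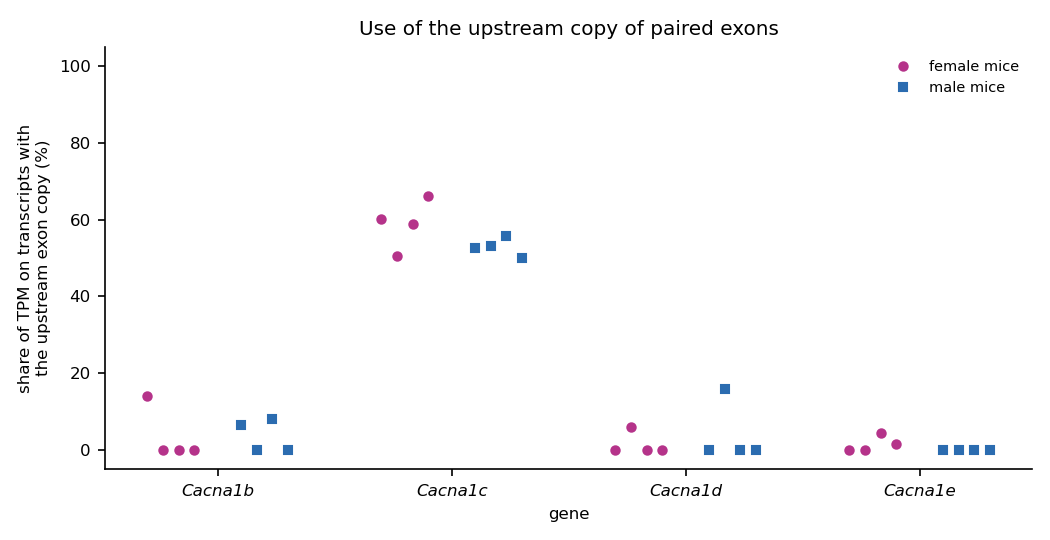
Share (%) of the TPM of transcripts with either copy of a paired exon that lay on the upstream copy, for 4 calcium channel genes, with circles for females and squares for males. *Cacna1c* lies between 49.9% and 66.2%, and *Cacna1b*, *Cacna1d* and *Cacna1e* at or below 16.0%.

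The cytoplasmic beta subunits, which carry the calcium channel pore to the membrane, stood in the order *Cacnb1*, *Cacnb2*, *Cacnb3* and *Cacnb4*, with 71.6, 61.1, 57.7 and 24.4 TPM. The middle pair was in this order in 4 of 8 mice by TPM and in 0 of 8 with count-weighted lengths, where *Cacnb2* had 54.3 and *Cacnb3* 73.7. *Cacnb1* (chromosome 11, 98001508 to 98023034) had 85.1, 104, 133 and 132 CPM across females 1 to 4, and 86.4, 80.7, 79.0 and 84.1 CPM across males 1 to 4. Females 3 and 4 stood far above the other mice and female 1 lay below male 1, with 113 ± 23.1 against 82.6 ± 3.32 CPM (SD, n = 4 each) and a log2 fold change of 0.46 (standard error 0.137, edgeR adjusted p = 0.136). *Cacnb4* (chromosome 2, 52428320 to 52676831) had 97.6, 100.3, 125 and 108 CPM across females 1 to 4, and 90.5, 56.5, 90.2 and 69.6 CPM across males 1 to 4. Its sexes did not overlap, with 108 ± 12.4 against 76.7 ± 16.6 CPM (SD, n = 4 each) and a log2 fold change of 0.49 (standard error 0.156, edgeR adjusted p = 0.15), and 16.0% of its exon bases overlap an annotated antisense gene, whose reads cannot be told apart without a strand setting. *Cacnb2* and *Cacnb3* had log2 fold changes of 0.28 and 0.19. Protein-coding transcripts held 68.3% of the counts of *Cacnb2*, and its sign turned with an offset for transcript length.

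The alpha2delta subunits, the outer subunits that bind gabapentinoid drugs in the case of *Cacna2d1* and *Cacna2d2*, had 76.6 ± 13.2 TPM (*Cacna2d2*), 56.0 ± 15.1 TPM (*Cacna2d1*) and 33.2 ± 6.33 TPM (*Cacna2d3*), an order kept in 8 of 8 mice by TPM. *Cacna2d1* (chromosome 5, 15934691 to 16374511) had 183, 184, 192 and 209 CPM across females 1 to 4, and 134, 109, 143 and 145 CPM across males 1 to 4. Female 1, the lowest female, lay well clear of male 4, the highest male, with 192 ± 12.1 against 133 ± 16.4 CPM (SD, n = 4 each) and a log2 fold change of 0.53 (standard error 0.0986, edgeR adjusted p = 0.0690). *Cacna2d2* (chromosome 9, 107399612 to 107529343) had 195, 241, 228 and 179 CPM across females 1 to 4, and 248, 194, 194 and 160.5 CPM across males 1 to 4. Male 1 was the highest mouse of all, and the sexes overlapped widely, with 211 ± 28.7 against 199 ± 36.3 CPM (SD, n = 4 each) and a log2 fold change of 0.08 (standard error 0.141, edgeR adjusted p = 0.774). *Cacna2d3* had a log2 fold change of 0.24.

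**Figure D4:**
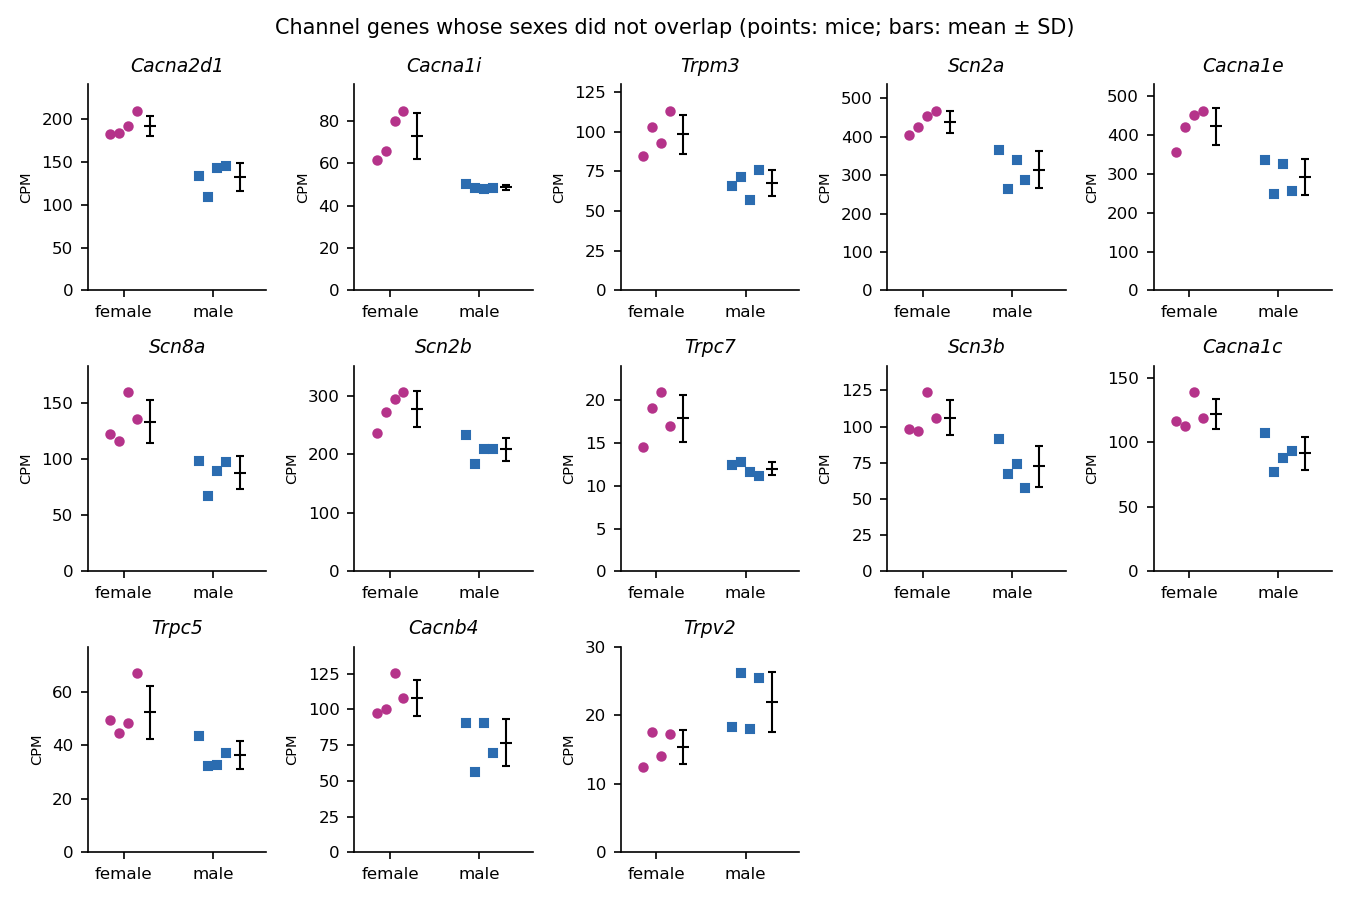
CPM in each mouse of the 13 channel genes whose sexes did not overlap, ordered by p from edgeR, with circles for females, squares for males and bars for the mean and SD of 4 mice. In 12 panels the lowest female is above the highest male, as in *Cacna2d1*, and in *Trpv2* the lowest male, at 18.1 CPM, is above the highest female, at 17.6 CPM.

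The HCN channels, which open on hyperpolarization and bind cyclic nucleotides, had 1 gene of 3 with the higher mean in females. *Hcn2* held 59.9% to 71.6% of the TPM of the 3 genes, *Hcn3* 16.7% to 29.4% and *Hcn4* 7.90% to 14.2%, in that order in 8 of 8 mice. *Hcn2* (chromosome 10, 79716634 to 79736108) had 82.6, 64.0, 58.4 and 54.5 CPM across females 1 to 4, and 62.1, 80.0, 73.6 and 80.5 CPM across males 1 to 4. Female 1 was the highest mouse and the other females lay among or below the males, with 64.9 ± 12.4 against 74.1 ± 8.55 CPM (SD, n = 4 each) and a log2 fold change of -0.19 (standard error 0.142, edgeR adjusted p = 0.468). *Hcn4* had a log2 fold change of -0.19 and *Hcn3*, of whose exon bases 17.1% overlap the antisense gene *Pklr*, of 0.25. The summed TPM of the family was 61.0 ± 7.33 in females and 61.6 ± 3.23 in males (SD, n = 4 each).

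The TRPC genes *Trpc1*, *Trpc4* and *Trpc5* stood at nearly the same level, with 19.4, 19.3 and 19.1 TPM and neighbours whose order held in at most 5 of 8 mice, above *Trpc7* with 7.97 and *Trpc6* with 5.28. With count-weighted lengths *Trpc1* was above *Trpc4* in 1 of 8 mice, at 22 against 25.8. *Trpc5*, on the X chromosome (144381671 to 144688180), had 49.6, 44.6, 48.6 and 66.9 CPM across females 1 to 4, and 43.5, 32.2, 32.8 and 37.0 CPM across males 1 to 4. Female 4 stood well above the rest and female 2 just above male 1, with 52.4 ± 9.91 against 36.4 ± 5.21 CPM (SD, n = 4 each) and a log2 fold change of 0.53 (standard error 0.152, edgeR adjusted p = 0.129). *Trpc7* (chromosome 13, 56773113 to 56895993) had 14.5, 19.1, 20.9 and 16.9 CPM across females 1 to 4, and 12.4, 12.7, 11.6 and 11.1 CPM across males 1 to 4. Its females lay above its males, with 17.9 ± 2.74 against 12 ± 0.745 CPM (SD, n = 4 each) and a log2 fold change of 0.58 (standard error 0.147, edgeR adjusted p = 0.104), on 88 to 423 counts per mouse. Protein-coding transcripts held on average 84.4% of its counts in females and 95.0% in males. Counted over them alone its log2 fold change was 0.41 (edgeR adjusted p = 0.258).

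*Trpc6*, a channel opened by diacylglycerol like *Trpc7*, had the widest range of the genes with at least 10 counts in every mouse, 1.74 on the log2 scale. *Trpc6* (chromosome 9, 8544142 to 8680741) had 8.33, 7.94, 5.13 and 6.93 CPM across females 1 to 4, and 17.5, 9.81, 11.4 and 8.19 CPM across males 1 to 4. Male 1 was the highest and male 4 lay below female 1, with 7.08 ± 1.43 against 11.7 ± 4.07 CPM (SD, n = 4 each) and a log2 fold change of -0.74 (standard error 0.267, edgeR adjusted p = 0.185). *Trpc1* (chromosome 9, 95705082 to 95750375) had 30.9, 34.5, 43.8 and 34.5 CPM across females 1 to 4, and 32.3, 33.7, 34.5 and 19.9 CPM across males 1 to 4. Male 4 was far below all other mice, with 35.9 ± 5.53 against 30.1 ± 6.87 CPM (SD, n = 4 each) and a log2 fold change of 0.25 (standard error 0.185, edgeR adjusted p = 0.457). *Trpc4* had a log2 fold change of 0.02, whose sign changed when single mice were left out.

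The TRPM genes joined channels of different kinds. *Trpm2*, opened by oxidants and warmth and also expressed by microglia, had 33.9 ± 10.1 TPM, but only 24.3% of its counts lay on protein-coding transcripts and 53.2% on 1 processed transcript. It was highest of the 4 genes by TPM, while with count-weighted lengths it had 18.8, below *Trpm3* at 19.6. *Trpm2* (chromosome 10, 77907722 to 77970563) had 46.2, 35.1, 40.7 and 42.0 CPM across females 1 to 4, and 37.3, 58.6, 36.0 and 52.0 CPM across males 1 to 4. Males 2 and 4 were the highest and males 1 and 3 lay at the low end of the females, with 41 ± 4.56 against 46.0 ± 11.1 CPM (SD, n = 4 each) and a log2 fold change of -0.16 (standard error 0.170, edgeR adjusted p = 0.616). Counted over protein-coding transcripts alone its log2 fold change was 0.19, with the sign turned.

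*Trpm3*, a channel opened by heat and by the neurosteroid pregnenolone sulfate, (chromosome 19, 22139046 to 22995410) had 84.4, 103, 93.0 and 113 CPM across females 1 to 4, and 65.6, 71.4, 56.9 and 75.8 CPM across males 1 to 4. The lowest female, female 1, lay above male 4, the highest male, with 98.2 ± 12.3 against 67.4 ± 8.16 CPM (SD, n = 4 each) and a log2 fold change of 0.54 (standard error 0.118, edgeR adjusted p = 0.0822). *Trpm7*, a channel joined to a kinase, and *Trpm4*, opened by calcium and passing sodium, had 18.5 ± 5.95 TPM and 5.85 ± 2.18 TPM and log2 fold changes of 0.10 and 0.21. Of the counts of *Trpm4*, 25.5% lay on protein-coding transcripts.

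Of the TRPV genes, *Trpv2* alone was tested. *Trpv2*, a channel also found in macrophages, (chromosome 11, 62574486 to 62600515) had 12.4, 17.6, 14.1 and 17.3 CPM across females 1 to 4, and 18.3, 26.1, 18.1 and 25.4 CPM across males 1 to 4. Every male lay above every female, though male 3 and female 2 differed by little, with 15.3 ± 2.50 against 22.0 ± 4.39 CPM (SD, n = 4 each) and a log2 fold change of -0.52 (standard error 0.180, edgeR adjusted p = 0.175). The order of the mice put male 2 and male 4 on top, as for microglial RNA above. Among females it differed, as female 1, highest in microglial RNA at 0.58, was lowest in *Trpv2*, and female 2, at -0.99, was highest. The part of other cells in this difference was not tested. With an offset for transcript length the log2 fold change was -0.23 (edgeR adjusted p = 0.524), and over protein-coding transcripts alone -0.67 (edgeR adjusted p = 0.128).

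Read by role, the count of genes higher in females was 3 of 3 for sodium channel beta subunits, NALCN genes, T-type channels and alpha2delta subunits, 5 of 5 for high voltage activated calcium channels and 4 of 4 for calcium channel beta subunits, 4 of 6 for sodium channel pores, 4 of 5 for TRPC, 3 of 4 for TRPM, 1 of 3 for HCN and 0 of 1 for TRPV. Over all genes tested the share higher in females was 49.4%. At an unadjusted p under 0.05, where 9.86% of all genes were higher in females, this held for 3 of 3 T-type genes, 3 of 5 high voltage activated, 3 of 4 calcium channel beta subunits, 2 of 3 sodium channel beta subunits, 2 of 3 NALCN genes, 1 of 3 alpha2delta subunits, 2 of 6 sodium channel pores, 2 of 5 TRPC, 1 of 4 TRPM, 0 of 3 HCN and 0 of 1 TRPV. The 3 genes higher in males at that threshold were 1 sodium channel pore, 1 TRPC and 1 TRPV gene, against 10.7% of all genes. These counts describe the genes, and no test of a difference between roles was made.

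Genes outside the list give a setting for these values. Of 20 partner genes, whose proteins bind or modify the channels or refill calcium stores, 17 lay higher in females at a median log2 fold change of 0.22, and 8 had an unadjusted p under 0.05 with the higher value in females, against 9.86% of all genes. Among them the ankyrin genes *Ank2* and *Ank3*, which hold sodium channels in place, had log2 fold changes of 0.47 and 0.44 (edgeR adjusted p = 0.0831 and 0.0878). Of 26 further genes of the same families that were found, 14 were tested, 7 were higher in females, and the median log2 fold change was -0.02. *Scn11a* had the largest difference of these, 1.18 (edgeR adjusted p = 0.146), on at most 118 counts. Every female lay above every male in it, against 6.48% of all genes. It was the 1 gene of the 14 that DESeq2 called (adjusted p = 0.0487), against 4.38% of the genes it could adjust, higher in females.

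Beside the channel genes, all 9 of the neuron identity genes lay higher in females, by a median of 0.14 in log2 fold change. They ranged from 0.0082 (*Elavl4*) to 0.68 (*Rbfox3*). In *Rbfox3*, *Syt1* and *Snap25*, at 0.68, 0.55 and 0.48, every female lay above every male, against 6.48% of all genes. DESeq2 called these 3 of the 9, against 4.38% of the genes it could adjust, while edgeR called 0. Microglial genes were higher in females in 0 of 10, with a median of -1.42, infiltrating immune genes in 0 of 9, with -1.57, astrocyte genes in 0 of 6, with -0.79, oligodendrocyte lineage genes in 0 of 8, with -1.03, and vascular and ependymal genes in 1 of 8, with -0.32. Genes listed for neighbouring ventromedial nucleus neurons were higher in females in 6 of 7, with a median of 0.69. *Nr5a1* was the exception, at -0.44 on a mean of 2.32 TPM, and *Sox14* lay at 0.01. *Esr1*, the estrogen receptor gene, was the only gene of these lists called by edgeR. The paper reports it in a subset of the *Sst* cells of the TN too, so it does not mark those neighbours alone. The channel median of 0.27 thus lay between those of the neuron identity and the ventromedial lists.

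**Figure D5:**
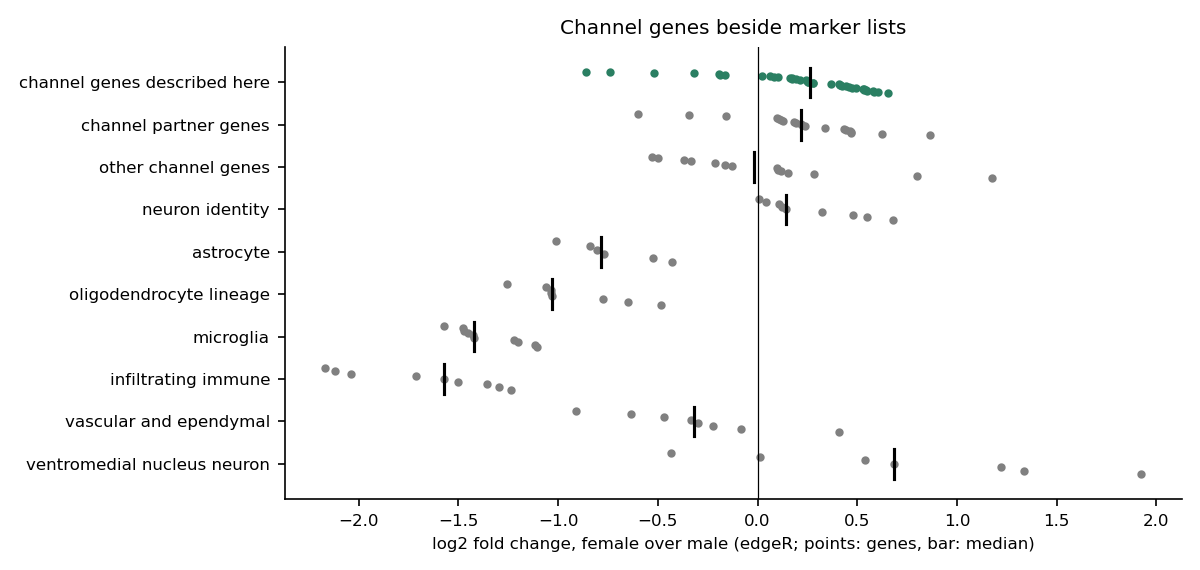
Log2 fold change, female over male, of each gene tested in the channel list and in 9 comparison lists, with a bar at each median. The channel genes center on 0.27 and the neuron identity genes on 0.14, while the microglial genes center on -1.42 and the infiltrating immune genes on -1.57.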

How the data were processed

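From tdTomato-sorted TN SST cells of 4 female and 4 male mice, the authors made 1 stranded total RNA library each and sequenced single ends. With kallisto 0.46.2 and mm10 transcripts, the authors obtained and deposited estimated counts per transcript, which are not normalized. They also deposited TPM per transcript, a signal scaled by length and library. Each mouse's values came in 2 blocks, whose nature is not given in the sources used here; the blocks' estimated counts were summed and their TPM averaged. The strand setting is not given either.

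The 116728 transcripts matched to GENCODE release M21 were summed per gene and rounded; 1761 were not matched, with 0.429% to 0.611% of a mouse's counts. Females and males were compared by the quasi-likelihood test of edgeR 4.0.16 (R 4.3.3), after TMM scaling and its default filter by sex, with Benjamini-Hochberg adjustment over all genes tested. DESeq2 1.42.0, on the same genes, was an alternative. Exact permutation tests of log2 CPM (prior count 2) were 2-sided. Python 3.11.15 with pandas 2.3.3, numpy 2.4.6 and matplotlib 3.10.9 was used for joins and plots.

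The channel genes and the comparison lists were chosen with earlier results of these data known. Values by mouse are given for channel genes passing an adjusted p of 0.05, otherwise for up to 12 by p whose sexes do not overlap, for the highest by TPM of each role, and for the 3 with the widest range among those with at least 10 counts per mouse. Exon sequences were read from the GENCODE transcripts (GRCm38, which is mm10) at annotated exons. Other alternatives were another scaling (RLE), no filter and a filter of 10 counts in 4 mice, each block alone, a transcript length offset, protein-coding transcripts alone, leaving out *Lars2*, the most abundant gene, a replicate block and leaving out mice. Protein sequences were not used here, and some sequences and genes are not reported here.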

Additional observations from a re-analysis of the deposited data

Results flagged for a closer look

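Values far from the others of their sex were searched for in 82 groups of 4 mice by Dixon's test, which by chance flags about 5% of groups, and 4 stood apart. *Scn3a* in female 2 had 140 CPM where the other females had 149 to 151, a small gap between close values. *Scn4b* in female 3 had 3.31 CPM, on 67 counts, where the other females had 1.89 to 2.00. *Trpc1* in male 4 had 19.9 CPM, on 158 counts, where the other males had 32.3 to 34.5, and this mouse moved the male mean given above. *Trpv1* in female 2 had 0.305 CPM, which is 2 counts and under the limit of detection, where the other females had 0. No explanation of these values was tested.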

How the results depend on the processing

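Of the channel genes, 0 were called by edgeR and 14 by DESeq2. Leaving out each mouse in turn gave 0 to 7 called (0.0518% to 2.67% of all genes), 15 to 22 higher in females (6.66% to 12%) and 2 to 4 higher in males (5.82% to 14.2%) at an unadjusted p under 0.05, and 13 to 22 whose sexes did not overlap (12% to 23.6%). Without both female 1 and male 2 the last was 23 (23.5%). With the replicate block 0 were called and 17 were higher in females at an unadjusted p under 0.05 (0.00658% and 8.13% of all genes). Same-numbered mice correlated at -0.40, -0.16, 0.04 and 0.07 over genes. These values cannot tell whether the numbers mark mice handled together, because no differently numbered mice were set beside them. Of the values of single genes under these settings, 721 kept direction and side of the threshold, 27 passed it newly and 11 changed sign. These were *Cacna1d* with -0.050 (first block alone) and -0.082 (protein-coding transcripts alone), *Cacnb2* with -0.082 and *Trpm7* with -0.00089 (length offset), *Trpm2* with 0.19 (protein-coding transcripts alone), *Trpc4* with -0.026 (second block alone), and, with each mouse left out in turn, *Trpc4* with -0.080 (without female 3) to 0.099 (without female 4) and *Cacna2d2* with -0.0081 (without male 4) to 0.21 (without male 1). *Trpc4* also turned without female 2, male 1 or male 4, at -0.0022, -8.9e-05 and -0.010. The cause was not tested. Of 31 neighbouring pairs in the order of TPM, 26 kept it on the other length scale and *Scn8a*, *Cacna1h*, *Cacnb2*, *Trpc1* and *Trpm2* fell below the next gene. At this depth *Scn4b*, *Trpm4* and *Scn7a* rest on few counts, and *Trpv1* was not detectable beyond 2 counts.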
